A study of Mus musculus with 2 samples.

Results

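The 9 genes described here are Plau, Plat, Plaur, Serpine2, Mmp2, Mmp14, Timp1, Timp2 and Timp3, a group of secreted and membrane-bound proteases with their receptor and inhibitors. They are 9 of 34650 names carried by non-control probes of the array, and they hold 10 of its 55681 probes. The genes were selected by name as a functional group, with the differences between these 2 arrays already known. Their differences are therefore given as a description, with no test. Every probe of each gene is shown.

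RNA was measured on 2 one-colour microarrays, 1 of EpiSC and 1 of ELA-EpiSC, both from the mouse embryonic stem (ES) cell line E14Tg2A of strain 129/Ola. EpiSC, epiblast stem cells, were derived directly from ES cells with FGF2 (12 ng/mL) and Activin A (20 ng/mL) in a chemically defined N2/B27 medium. ELA-EpiSC were derived with the same factors and medium from Epiblast-Like Aggregates (ELA), the floating clusters formed by ES cells once serum and LIF are withdrawn. The pair addresses how close the cells of the aggregate route are to those of the direct route. All cells came from 1 line, and each RNA was a pool of 3 experiments, so there was 1 value per group, no replicate and no p-value. Groups follow the sample titles. The source fields conflict with these titles, since both speak of undifferentiated cells and the one for EpiSC of RNA bound to Argonaute.

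Plasmin, made from plasminogen by the urokinase-type activator (Plau) and the tissue-type activator (Plat), degrades fibrin and matrix proteins at the cell surface and can activate secreted zymogens. The receptor Plaur concentrates urokinase on the membrane, and serpins such as Serpine2 trap the activators irreversibly. Matrix metalloproteinases (MMPs) cut collagens and other matrix proteins, and the tissue inhibitors of metalloproteinases (TIMPs) bind their active sites. In the early embryo these systems act where cells invade or cross basement membrane, and parietal endoderm is a classical source of tissue-type activator.

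Levels are log2 of background-corrected, quantile-normalized spot intensity, and differences are log2 ELA-EpiSC minus EpiSC. A gene with several probes took the value of its brightest detected probe. The error set beside a difference was that of replicate spots. Of these, 312 probes were printed 10 times and detected on both arrays, and their spots gave a pooled SD of 0.10 for a difference. The scanner software gives its own error for each spot, quoted below with processed intensities. Multiples of the spot SD do not include that error. Each member probe was printed once, so its spot SD was taken from the 50 replicated probes nearest to it in level. It covers neither labelling nor culture. Probes differ in how strongly they bind, so a level is compared between arrays and never between genes. Both arrays had a similar share of probes well above background, 65.9% and 65.0%, with 0 saturated spots.

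Of the 9 genes, Plaur, Timp1 and Timp3 were 2.83-fold, 1.72-fold and 1.61-fold higher in ELA-EpiSC, each difference being several times the spot SD. Plau was well above background on the ELA-EpiSC array alone. Timp2, Mmp14 and Mmp2 differed by 0.24, 0.19 and 0.17 on the log2 scale, and Plat and Serpine2 by -0.18 and -0.02. A difference of at least 1 at a mean level of at least 7.5 was met by 1 of 8 members that reached this level, in a background of 4.54% of 16649 genes that were higher in ELA-EpiSC by that size. In the other direction it was met by 0 of 8 members, in a background of 4.46%. The median difference was 0.21 over these 8 members and 0.0014 over all 16649 genes. Plau, the ninth gene, did not reach the minimum level.

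**Figure D1:**
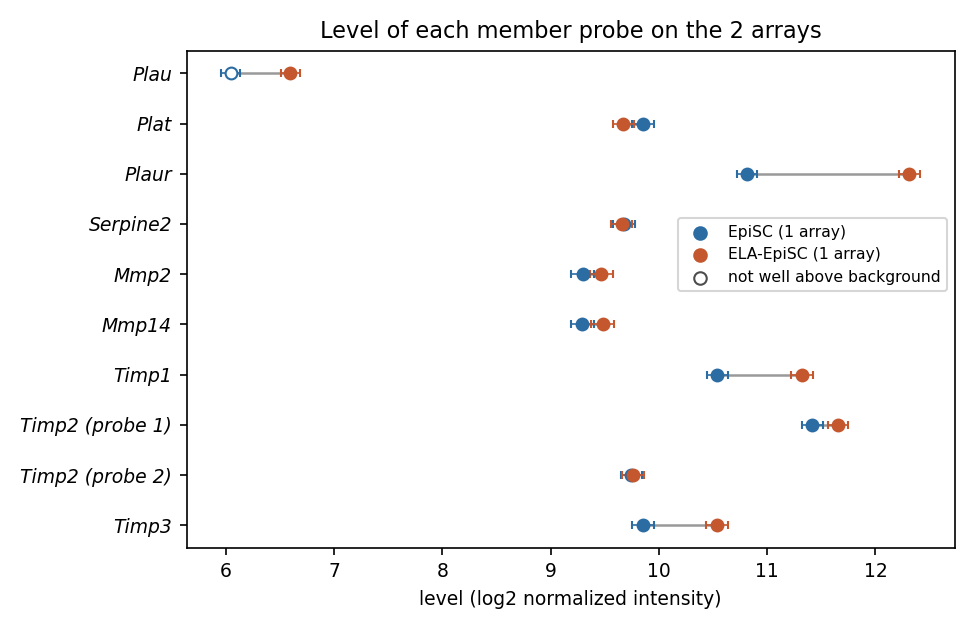
Level of each member probe (log2 normalized intensity, horizontal axis) on the EpiSC array (blue) and the ELA-EpiSC array (orange), with bars for the spot SD of a difference between arrays at that level and an open circle where the probe was not well above background. Plaur, Timp1 and Timp3 are farthest apart, Serpine2 and the second Timp2 probe coincide within the bars, and positions of different probes are not comparable.

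Plaur codes for the urokinase receptor, which is held on the cell surface by a lipid anchor. Its probe (chr7:25260569-25260628, mm9) read 1590 intensity units in EpiSC and 5585 in ELA-EpiSC before any correction, over a local background of 26 and 22. Feature Extraction, the scanner software, gave processed intensities of 1692 ± 169 and 6788 ± 679, where the error is its own estimate for a spot. Normalized levels of Plaur were 10.81 (EpiSC) and 12.31 (ELA-EpiSC). The difference, 2.83-fold, was 15.7 spot SDs and exceeded those of 98.0% of genes at the minimum level. Over 14 alternatives in processing it lay, on the log2 scale, between 1.49 and 2.04.

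Of the activators, Plau was close to background and Plat was not. The probe of Plau (chr14:21662242-21662301, mm9) read 36.4 units over a background of 28.5 in EpiSC, where it was not well above background, and 67.0 over 25 in ELA-EpiSC, where it was. The normalized levels were 6.05 and 6.60. This is 1.46-fold higher in ELA-EpiSC in the values reported, and no lower bound over the alternatives. The log2 difference depended on the processing. It was 0.24 with 75th percentile scaling after normexp, which changes the scaling alone, and 0.83 to 1.54 where the background correction or its offset alone was changed. With processed signal, which changes both, it was 2.51, from intensities of 5.76 ± 2.18 and 40.9 ± 4.89. Urokinase mRNA was thus measured above background in ELA-EpiSC, with a size that these arrays do not fix.

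Plat was detected on both arrays. Its probe (chr8:23892531-23892590, mm9) read 804 units in EpiSC and 866 in ELA-EpiSC, and stood at 9.85 and 9.67 after normalization. The difference of -0.18 (-1.82 spot SDs) turned to 0.04 with scaling to the median and to 0.36 with scaling to spike-in RNA. A change in tissue-type activator was therefore not fixed in direction.

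Serpine2, protease nexin-1, inhibits thrombin as well as both plasminogen activators. Its levels were 9.68 (EpiSC) and 9.65 (ELA-EpiSC), a difference of -0.02 that was smaller than its spot SD of 0.10. The sign was positive with processed signal, median scaling and spike-in scaling. Its probe spans 2618 bases of the mm9 assembly with 60 bases of sequence (chr1:79793476-79796093), so it crosses an intron and reads spliced RNA. The sequence is shown for that reason, as is that of 1 of 2 Timp2 probes below. Each has at least 1 reading frame with no stop codon.

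Serpine2 probe: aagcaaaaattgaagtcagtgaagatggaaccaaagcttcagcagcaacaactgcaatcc

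Timp2 probe 2: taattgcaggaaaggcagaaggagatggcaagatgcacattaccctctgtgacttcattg

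Mmp2 (gelatinase A) and Mmp14, the membrane-anchored MMP that activates it, form a pair with Timp2: pro-MMP2 is held on the cell surface by Timp2 bound to Mmp14 and is cut there by a free Mmp14. All 3 genes were detected on both arrays. Mmp2 (chr8:95376840-95376899, mm9) had levels of 9.30 (EpiSC) and 9.47 (ELA-EpiSC). Mmp14 (chr14:55058775-55058834, mm9) stood at 9.29 and 9.48. Their differences of 0.17 and 0.19 were 1.66 and 1.79 spot SDs, and both were above 0 in each of 14 alternatives. The brighter probe of Timp2 (chr11:118163146-118163205, mm9) stood at 11.42 and 11.65. The other, which spans 6778 bases and crosses an intron (chr11:118171964-118178741, mm9), stood at 9.75 and 9.76. They gave differences of 0.24 and 0.01, so of the pair only the brighter one differed by more than its spot SD. Cyclic loess placed the second probe slightly below 0. The 3 genes of this activation complex therefore differed by at most 0.24 in the values reported.

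Timp1 and Timp3 differed more than Timp2. Timp1, a secreted inhibitor of many MMPs that also binds pro-MMP9, read 1300.1 units in EpiSC and 2792 in ELA-EpiSC (chrX:20451802-20451861, mm9). Processed intensities were 1346 ± 135 and 2990.3 ± 299. The normalized levels of 10.54 and 11.32 gave a difference of 0.78, or 1.72-fold, which exceeded those of 93.0% of genes. Timp3, the TIMP that stays bound to the matrix and also inhibits ADAM and ADAMTS proteases, read 802 and 1626 units (chr10:85811696-85811755, mm9). Processed intensities were 800.3 ± 80.1 and 1694 ± 169. It stood at 9.85 and 10.54, a difference of 0.69 or 1.61-fold, above those of 91.5% of genes. These differences were 7.97 spot SDs for Timp1 and 6.87 for Timp3. The lowest values over 14 alternatives were 0.75 and 0.68.

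Scaling to the median or to spike-in RNA turned the sign of Plat and Serpine2, and of no other member. Put through the same quantile normalization, the signal of spike-in RNA was lower on the ELA-EpiSC array for 8 of 8 detected probes. The mean difference of these probes was -0.54, which was used for scaling, and -0.41 before that normalization. Setting these probes equal moved the median difference of all genes to 0.54 and scaling to the median moved it to 0.15, so all 8 members at the minimum level then lay above 0. Timp1 reached 1.02 with median scaling, and with spike-in scaling Timp1 and Timp3 reached 1.32 and 1.23. The values reported are relative to the bulk of the genes.

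**Figure D2:**
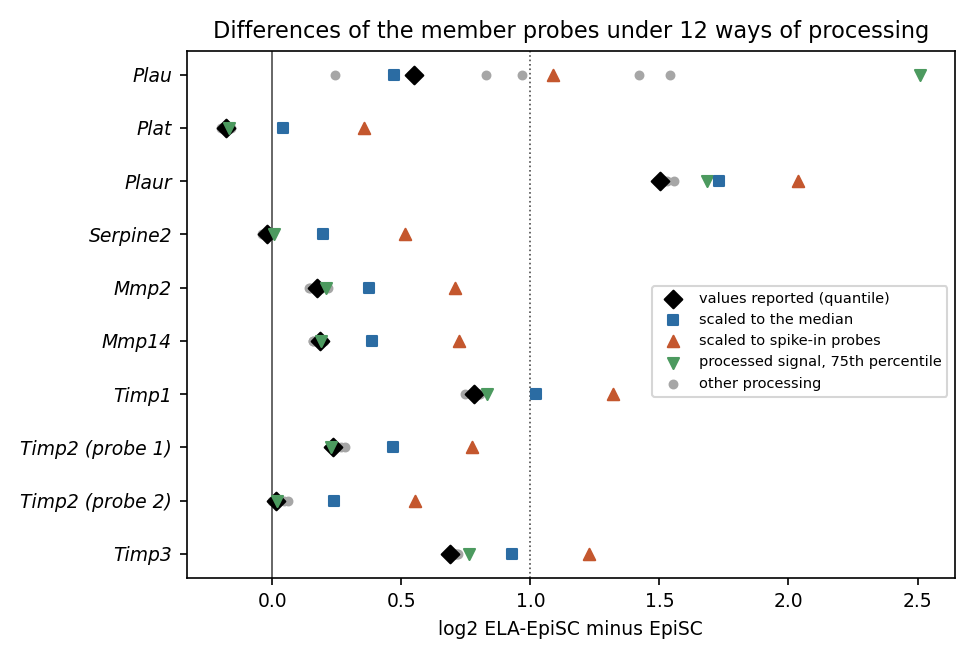
Difference of each member probe (log2 ELA-EpiSC minus EpiSC, horizontal axis) under 12 ways of processing, with the values reported as black diamonds. Scaling to spike-in probes (upward triangles) shifts every probe to the right, as does scaling to the median (squares) for all but Plau, while Plaur lies past 1 (dotted line) throughout, and Plau spreads from 0.24 to 2.51.

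For the 3 members with the largest differences among those detected on both arrays, the 250 bases before the annotated start are given, from the RefSeq promoter table of assembly GRCm38.p6, which matched 6 of 9 members. Capitals mark matches on either strand to 4 motifs. That of AP-1 is TGANTCA. The ETS motif searched was AGGAAG. A GC box was taken as GGGCGG, whose matches can overlap. The TATA letters were TATAAA.

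Plaur (chr7:24462233-24462482, plus strand): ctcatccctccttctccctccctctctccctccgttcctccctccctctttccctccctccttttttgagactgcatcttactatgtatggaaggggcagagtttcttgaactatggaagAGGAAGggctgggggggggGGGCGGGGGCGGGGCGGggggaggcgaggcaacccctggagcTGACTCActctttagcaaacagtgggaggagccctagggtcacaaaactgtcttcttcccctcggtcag

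Timp1 (chrX:20869916-20870165, plus strand): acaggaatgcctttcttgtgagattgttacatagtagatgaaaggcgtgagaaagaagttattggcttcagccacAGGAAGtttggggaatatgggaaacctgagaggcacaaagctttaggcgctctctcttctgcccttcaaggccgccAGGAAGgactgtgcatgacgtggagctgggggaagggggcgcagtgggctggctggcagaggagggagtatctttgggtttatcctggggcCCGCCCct

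Timp3 (chr10:86300162-86300411, plus strand): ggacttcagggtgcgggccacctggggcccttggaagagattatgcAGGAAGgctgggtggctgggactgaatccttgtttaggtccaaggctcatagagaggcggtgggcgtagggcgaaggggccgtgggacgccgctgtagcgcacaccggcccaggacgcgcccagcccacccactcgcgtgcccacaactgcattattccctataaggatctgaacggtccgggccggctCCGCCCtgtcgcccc

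Plaur holds an AP-1 match starting 69 bases before the start, a motif found in 6.75% of 32851 promoters of the same length, and no other matched member holds one. An ETS match was present in 5 of 6 members, all but Timp2, and in 29.5% of all promoters. Each of the 6 members holds a GC box match, which 32.7% of all promoters do, and none holds the TATA letters, which 12.4% do. Their windows were rich in G and C, from 54.4% in Timp1 to 78.8% in Serpine2, beside a median of 52.4% over all promoters. A match of letters is no evidence that a factor binds.

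The wider plasminogen system was read from 23 further genes, listed by name. Anxa2 (annexin A2), a cell-surface binding partner of plasminogen and tissue-type activator, had levels of 13.54 (EpiSC) and 15.20 (ELA-EpiSC), a difference of 1.66. It lay between 1.47 and 2.20 over 14 alternatives. Among the 10 genes of the list at the minimum level, 1 was higher past 1 and 0 were lower past 1. Of these 10, 7 lay above 0, with a median of 0.54. Over all 16649 genes at that level, 4.54% were higher past 1, 4.46% were lower past 1 and 50.2% lay above 0. These shares stand beside the counts of every list below. The median of the list was 0.27 with the mean of all probes, over 9 genes, and 0.03 without a filter, over 23. Plg, plasminogen itself, was well above background on the EpiSC array alone, at 6.20 against 6.05, and so was Serpinf2, the main inhibitor of plasmin, at 6.64 against 6.26. F12 was detected on the ELA-EpiSC array alone, at 6.36 against 6.09. All 3 lay near the background, with bounds of 1.06-fold, 1.31-fold and 1.21-fold that hold for the values reported only. Serpinb2, A2m and Hgf were detected on neither array.

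Most other MMPs were not measurable. Of 21, 14 lay too close to background on both arrays to be detected, the collagenases Mmp8 and Mmp13 and the stromelysins Mmp3 and Mmp10 among them. Mmp11 (stromelysin 3) was lower in ELA-EpiSC, at 10.95 against 11.98, a difference of -1.02 that was -0.49 with spike-in scaling. Over the 5 MMPs at the minimum level, 1 was lower past 1, 0 were higher, and the median was -0.17, which turned to 0.04 with median scaling and 0.37 with spike-in scaling. Mmp9 (gelatinase B), named after its values were seen because its mean lay under the minimum, stood at 6.36 and 7.90. Its difference of 1.54 was between 1.34 and 3.07 over 14 alternatives.

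A further 19 genes cover other MMP regulators and the ADAM and ADAMTS proteases, several of which Timp3 inhibits. Lrp1, the endocytic receptor that clears inhibited activators, is in this list and in that of the plasminogen system. Adam9, at 11.49 (EpiSC) and 12.68 (ELA-EpiSC), differed by 1.19, the 1 gene of 15 at the minimum level that passed 1. None was lower past 1, 10 lay above 0, and the median was 0.30. Timp4, the remaining TIMP, stood at 8.46 and 8.30, a difference of -0.17. Spike-in scaling adds a larger constant to every difference, so the direction of Timp4 was not fixed.

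**Figure D3:**
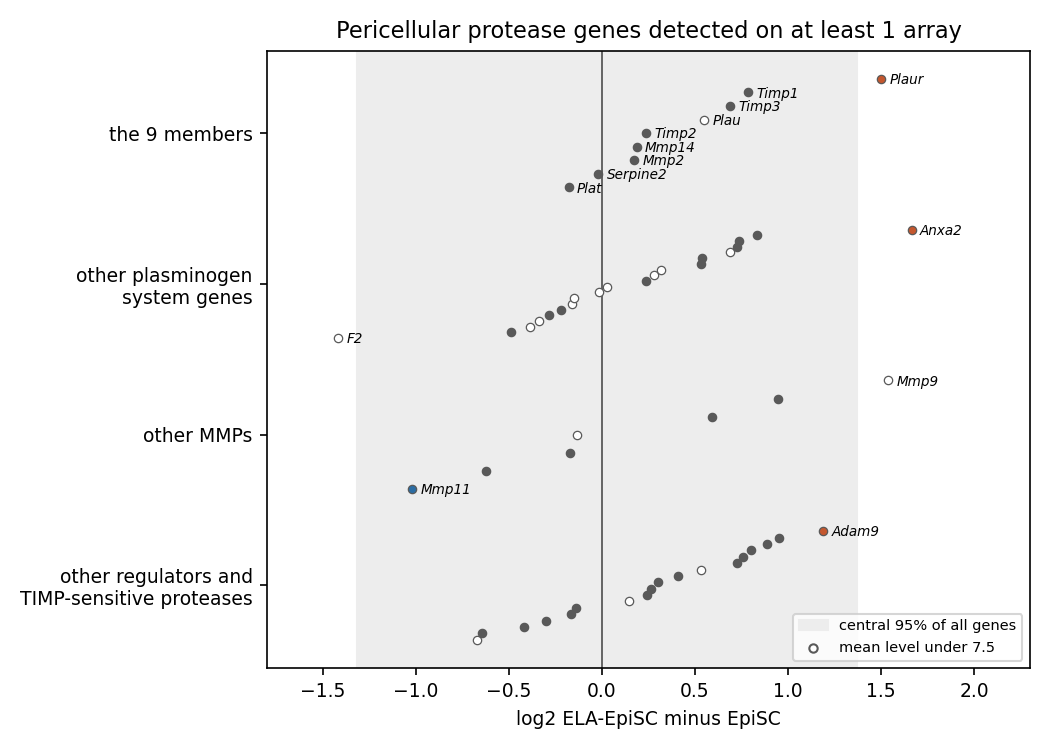
Difference (log2 ELA-EpiSC minus EpiSC, horizontal axis) of the detected genes reported from 4 lists, with a vertical spread inside each list only to separate the points. Orange marks genes higher past 1, blue genes lower past 1, open circles a mean level under 7.5, and the grey band the central 95% of all genes (-1.32 to 1.37). Anxa2, Plaur and Mmp9 lie to the right of the band and F2 (prothrombin), at a mean level under 7.5, to its left.

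Marker lists were read beside these values, since such genes are expressed by several cell types that an epiblast culture could hold. In a bulk sample fewer cells of a type and less RNA per cell cannot be told apart. All 8 EpiSC markers were detected on both arrays, and 6 lay above 0 and 2 below, with a median of 0.17. The sign of this median depended on the processing. It was -0.07 with processed signal and -0.05 with 75th percentile scaling after normexp, with 4 of 8 above 0 in each. Probes of 1 gene could differ in sign, from -0.31 to 0.32 for Nanog and from -0.28 to 0.0049 for Otx2. With the mean of all probes 5 of 8 lay above 0, with a median of 0.13. Pou5f1 (Oct4) stood at 14.27 and 14.46, while T (brachyury) was higher past 1, at 11.18 and 13.66. Sox2, at 10.48 and 10.21, and Dnmt3b, at 17.07 and 16.24, were the 2 below 0. The linear intensity of the list summed to 276749.7 in EpiSC and 238497 in ELA-EpiSC, of which Dnmt3b made up 49.8% in EpiSC. Such a sum weights each gene by the brightness of its probe. It is therefore no measure of the amount of a cell type.

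Of 12 fibroblast and mesenchyme markers, 11 were detected and Lum was not. The 7 at the minimum level lay above 0, with a median of 0.50, and 2 were past 1, Col1a1 at 7.07 and 10.79 and Pdgfra at 7.98 and 9.75. Dcn, under that level, went the other way, at 7.40 and 7.08, and Postn was detected on the ELA-EpiSC array alone. With processed signal 5 of 7 genes lay above 0, and at a minimum level of 9 the median was 0.26, over 4 genes. The list summed to 9264 and 14926, of which Acta2 made up 49.3% and 48.9%. All 13 parietal endoderm markers were detected. Of 11 at the minimum level 8 lay below 0, with a median of -0.57. In this list 1 gene was higher past 1 (Fst) and 3 were lower (Pth1r, Gata4 and Stra6). Thbd and Sox7, under the minimum level, were higher in ELA-EpiSC, at 6.44 and 7.98 and at 6.40 and 7.13. Without a filter the median was -0.33, with 5 of 13 above 0. With spike-in scaling the median was -0.03, with 5 of 11 above 0. Their sums of 184472 and 165832 came mostly from Sparc, which made up 70.1% of the first. The 8 visceral endoderm markers summed to 47640.1 and 26396, of which Foxa2 made up 54.6% and 72.5%. Of 6 at the minimum level, 5 lay below 0, with a median of -1.84. Hnf4a stood at 12.79 and 7.67, and Ttr was detected on the EpiSC array alone. The median was -0.93 over the 5 genes detected on both arrays, and -2.75 with the mean of all probes. The 7 trophoblast markers summed to 17915 and 6724. Of 6 at the minimum level, Ascl2, Gata3 and Elf5 were lower past 1 and Tfap2c was higher, at 10.40 and 11.56. The median was -1.02, and -1.51 over 4 genes with an offset of 0. The part of these cell types in the differences of the 9 genes was not tested.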

How the data were processed

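Each array held Cy3-labelled RNA, 50 ng per the labels. The authors deposited scanner files with spot intensity on a linear scale, the mean and median pixel brightness of each spot and its local background, not normalized between arrays, made with Feature Extraction 10.7.3.1 per the file headers; the submitters' processing notes name version 9.1. Both arrays lie on 1 slide and were scanned together. The authors also deposited log2 values, which their methods describe as made with limma by background correction and quantile normalization, and these served as an alternative. Flags of spot quality, coded as other values, were deposited in the same files.

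Mean spot signal was corrected against the median local background with limma 3.58.1 (R 4.3.3), by normexp with an offset of 50. Control spots and outlier spots were left out, and the arrays were quantile normalized, so a shift common to all genes cannot be seen, and the offset compresses differences of dim genes. Detection required a share of at least 0.5 of a probe's spots to be well above background. Bounds set the brighter level against the dim probe's level, or against the array's lowest level among detected probes (5.89 in EpiSC, 6.11 in ELA-EpiSC) where that is higher. Coordinates are those of the array design (mm9); exon and UTR annotation was not used here. The accessions of all 10 member probes matched the same symbols in the RefSeq table of GRCm38.p6.

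The members and lists were chosen with earlier results of these data known. Named were all members, genes of 3 pathway lists with a difference of at least 1 at a mean level of at least 7.5, and those detected on 1 array only. Outside this rule, Mmp9 and F2, whose mean level is lower, and Timp4, the remaining TIMP, were named after their values were seen, as were genes given without a difference; 1 gene of the plasminogen system list is not reported here and was left out of that list's counts. The number of arrays limits the precision. Normalization was tested on simulated data, and 17 alternatives were run.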

Additional observations from a re-analysis of the deposited data

How the results depend on the processing

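No paired analysis was possible because neither cell type had more than 1 array. The values that follow come from 17 alternatives. For a single gene's difference, 14 of them apply, and 13 for Plau, which is dropped when detection on both arrays is required. Of 125 such values for the members, 99 moved by less than the spot SD, 21 moved by more in the same direction and 5 changed sign. Among the 99 are 25 that could not move, since changing which probes or genes enter leaves the gene's value as it was. The 5 were those of Serpine2, at 0.0075 with processed signal, 0.20 with median scaling and 0.52 with spike-in scaling, and those of Plat, at 0.0425 with median scaling and 0.36 with spike-in scaling. Anxa2, Mmp9, Mmp11 and Adam9 kept their sign in 56 of 56 values, of which 11 could not move.

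The count of members higher past 1 was 1 in the values reported, 2 with median scaling and 3 with spike-in scaling. It was 3 at 1.5-fold and 0 at a size of 2.5. Of all genes at the minimum level, 6.69% were higher past 1 with median scaling and 14.9% with spike-in scaling, beside 4.54% in the values reported. At 1.5-fold the share was 11.1%, and at a size of 2.5 it was 0.40%. Over all genes, 756 were higher and 742 lower past 1, so 50.5% of the calls were higher, beside 68.3% with median scaling and 89.1% with spike-in scaling. Those counts were 2621 and 321 with spike-in scaling, 1845 and 1823 at 1.5-fold, and 67 and 108 at a size of 2.5, and 481 genes were lower with a minimum level of 9. In the plasminogen system list, 1 gene higher past 1 became 2 with median scaling, 6 with spike-in scaling, 4 at 1.5-fold and 0 at a size of 2.5, and 1 gene was lower past 1 without a filter. Of the other MMPs, 0 higher past 1 became 1 with an offset of 0, with processed signal, with median scaling and without a filter, and 2 with spike-in scaling and at 1.5-fold. The 1 lower past 1 became 0 with median scaling, with spike-in scaling and at a size of 2.5, and 2 at 1.5-fold. In the list of regulators and TIMP-sensitive proteases, 1 higher past 1 became 4 with median scaling, 7 with spike-in scaling, 6 at 1.5-fold and 0 at a size of 2.5, and 1 was lower at 1.5-fold. By construction, spike-in scaling adds 1 constant to every difference. The other sizes, the other minimum and the dropped filter change what counts, also by construction. For the remaining shifts the cause was not tested. Signal over background limits Plau most, with 36.4 units over 28.5 in EpiSC.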
